A study of Arabidopsis thaliana with 18 samples.

Results

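The HD-ZIPIII factors of Arabidopsis thaliana, transcription factors with a homeodomain and a leucine zipper, were followed through 6 sorted cell populations of the shoot apical meristem (SAM). The family has 5 genes, REVOLUTA (REV, AT5G60690), PHABULOSA (PHB, AT2G34710), PHAVOLUTA (PHV, AT1G30490), ATHB8 (AT4G32880) and ATHB15 (AT1G52150, also called CORONA), taken by identifier as the whole family. All 5 stood in at least 1 of the deposited tables, among 8444 genes that did so. Transcripts were measured in protoplasts, cells freed of their walls by enzymes, from ap1cal plants of 4 to 5 weeks, a double mutant that piles up meristems in place of flowers. All populations came from plants with the same 3 reporters, in the T2 generation and without treatment: pAtML1::mTag-BFP-ER (blue, epidermis), pREV::REV-2YPET (yellow, a REV fusion under the REV promoter) and pmiR165a::GFP-ER (green, promoter of the miR165a gene).

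The populations were epidermal REV cells (blue and yellow), epidermal miR165a cells (blue and green), epidermal gap cells (blue alone), subepidermal REV cells (yellow alone), subepidermal miR165a cells (green alone) and all negative cells (none of the 3). Each had 3 libraries, 18 in all, which the study calls biological replicates without stating whether they came from separate harvests or sorts. The design text of the series gives 4 per population, which the 18 samples do not match. The tables compare 2 populations each and hold no values per library, so levels per replicate and depth per library cannot be given. A gene entered a table if its adjusted p was 0.05 or lower and its log2 fold change lay at 1 or beyond in either direction, and "listed" is used below in that sense.

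HD-ZIPIII factors specify the adaxial, or upper, side of leaves, keep the centre of the shoot meristem active and direct the patterning of xylem. Their transcripts carry a site that pairs with the microRNAs miR165 and miR166, which are made on the abaxial side and at the periphery and guide cleavage of these transcripts by ARGONAUTE1. ARGONAUTE10 (AGO10) binds the same microRNAs and keeps them from that task, and the LITTLE ZIPPER (ZPR) genes encode small proteins that pair with HD-ZIPIII proteins and block them. In vascular tissue ATHB8 marks procambium and early xylem.

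The microRNAs and their sites are shown first because every member carries one, as did few other genes. RefSeq places 9 genes for them in the genome (build TAIR10.1), which encode 2 mature sequences of 21 bases, written here as DNA from the 5′ end with the seed (bases 2 to 8) in capitals.
miR165, from 2 genes: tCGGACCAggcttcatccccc
miR166, from 7 genes: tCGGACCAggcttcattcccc
The seed was the same in both, and the single difference was C17T (miR165 base, position from the 5′ end, miR166 base).

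The sites in the 5 transcripts are printed 5′ to 3′ on the strand of the gene, with capitals at bases that differ from the exact complement of miR165a. Mismatches are counted the same way, so a G opposite a U, which can still pair, counts as a mismatch.
REV site: CTgggatgaagcctggtccgG
PHB site: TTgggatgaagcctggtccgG
PHV site: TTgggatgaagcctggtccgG
ATHB8 site: CTgggatgaagcctggtccgG
ATHB15 site: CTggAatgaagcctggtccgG
PHB and PHV shared one sequence and REV and ATHB8 another, each with 3 mismatches to miR165a and 4 to miR166a. ATHB15 was the reverse, with 4 mismatches to miR165a and 3 to miR166a. The first annotated transcript of each of 31464 genes was scanned against the complement of miR165a alone. Of these genes 0.013% held a match with up to 3 mismatches (4 genes, all members). With up to 4 mismatches 0.022% did (7 genes, the 5 members, AT1G32750 and AT5G24150). Matches to miR166a were not counted over all genes. A match is a description of letters and no measure of cleavage.

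Every site lay wholly in coding sequence and was split by an intron, with 11 bases at the end of one exon and 10 at the start of the next. In RefSeq TAIR10.1 the REV site spans chr5:24398787-24398898 (forward strand, exons 4 and 5) and the PHB site chr2:14642530-14642666 (reverse strand, exons 4 and 5). The PHV site spans chr1:10799330-10799445 (reverse strand, exons 4 and 5), the ATHB8 site chr4:15866872-15866974 (reverse strand, exons 5 and 6) and the ATHB15 site chr1:19412976-19413085 (reverse strand, exons 4 and 5). An exonic overlap with another gene was annotated for REV alone, where AT5G60700 on the opposite strand shares 67 exonic bases (1.89% of REV's). The library kit is not described as marking strand, so reads of that stretch cannot be told apart. Identical stretches of 50 bases were found between PHB and PHV only, in 0.48% of PHB windows and 0.5% of PHV windows.

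Blue-sorted populations carried the epidermal markers. The levels of 7 markers, among them ATML1, PDF1 and FDH, summed to 33200 in epidermal REV, 37231 in epidermal miR165a and 30884 in epidermal gap cells, against 807, 1141 and 689 in subepidermal REV, subepidermal miR165a and all negative cells. MIR165A itself was listed in 0 of the 19 tables, so the green gate has no transcript check here. The count of genes that the authors tested is not in the files. Shares of called genes below are therefore shares of the 8356 genes listed for at least 1 of the 15 pairs of populations.

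Levels are estimates of the mean normalized count per population, rebuilt from the mean count over all libraries and the fold changes of 1 fit on all 6 populations. They carry no correction for gene length unless given per kb of exon. In a sorted bulk population, fewer cells that express a gene and less RNA per cell cannot be told apart. Where a pair was not listed, its fold change follows from the listed pairs, and its standard error (SE) is exact or an upper limit.

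**Figure D1:**
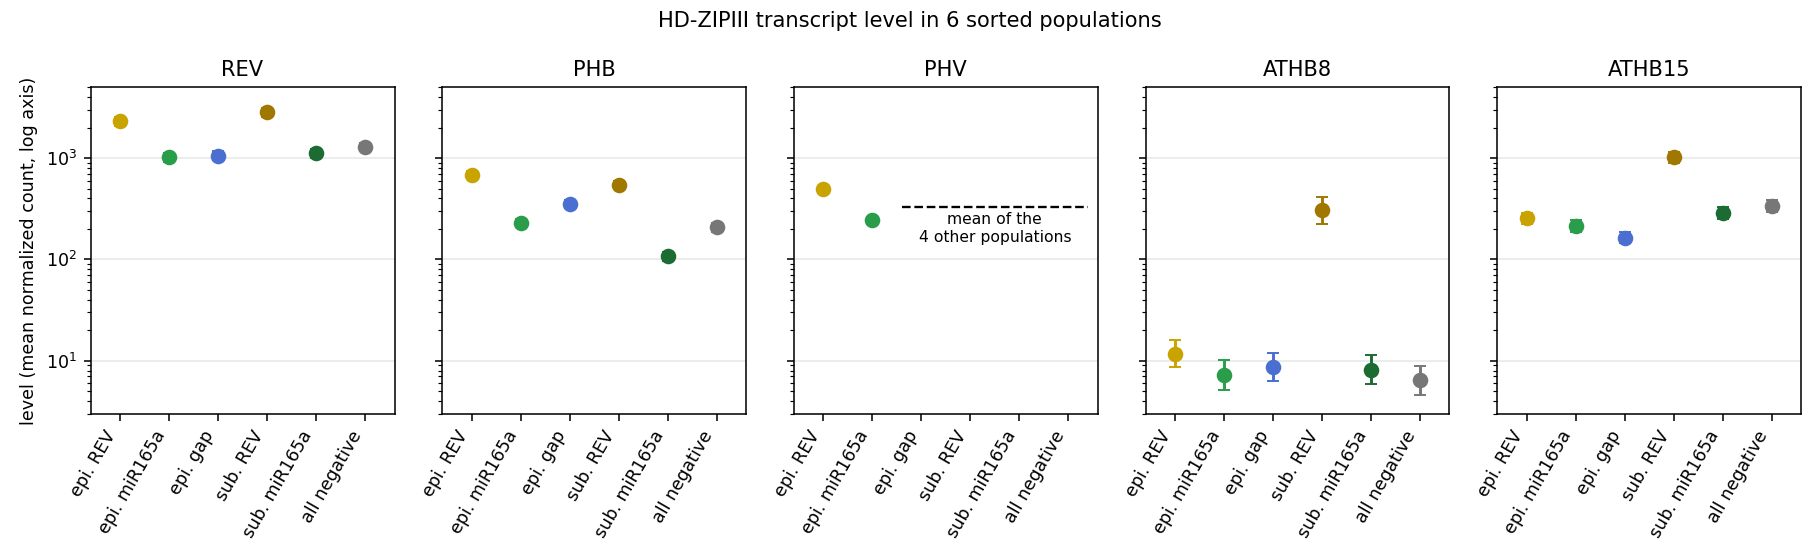
Level of each HD-ZIPIII transcript (mean normalized count, log axis) in the 6 populations. Points are rebuilt population levels and bars 1 SE on the log2 scale (an upper limit for REV and ATHB8, none for PHV). ATHB8 stands at 305 in subepidermal REV cells and at 6.43 to 11.8 elsewhere, while PHB spans 108 to 682.

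REV, the factor whose fusion defined the yellow gate, had the highest level of the members with a value in each population. Its level was 2298 in epidermal REV cells, against 1022 in epidermal miR165a and 1059 in epidermal gap cells. Below the epidermis it was 2844 in subepidermal REV cells, against 1114 in subepidermal miR165a and 1288 in all negative cells. The 2 yellow populations stood above the other 4, whose levels lay close together. Since yellow cells were picked by a REV protein fusion and transgene reads count as REV, these differences describe the sort.

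REV was listed in 7 of 15 pairs, each of a yellow against a non-yellow population. The log2 fold changes were 1.17 ± 0.15 (SE) over miR165a cells and 1.12 ± 0.14 over gap cells in the epidermis. They were 1.35 ± 0.15 over miR165a cells and 1.14 ± 0.14 over all negative cells in the subepidermis. The pair of epidermal REV over all negative cells fell short of the limit, at 0.84 (95% interval 0.55 to 1.12). In the order of levels the next neighbours among the 4 non-yellow populations differed by at most 0.21 on the log2 scale, with intervals that included 0. Subepidermal over epidermal REV cells gave 0.31 (-0.09 to 0.71, from an upper limit of the SE). REV transcript thus stood at 36.0% of its highest level in epidermal miR165a cells and at 39.2% in subepidermal miR165a cells.

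PHB, which acts with PHV and REV in adaxial fate, differed most finely among the populations. Its level was 682 in epidermal REV cells, against 229 in epidermal miR165a and 352 in epidermal gap cells. In the subepidermis it was 545 in REV cells, against 108 in miR165a and 206 in all negative cells. The yellow populations were highest, the epidermal gap cells came next, and subepidermal miR165a cells were lowest, at 15.8% of the highest level.

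PHB was listed in 8 of 15 pairs. REV over miR165a cells gave a log2 fold change of 1.57 ± 0.19 in the epidermis (2.97-fold, adjusted p = 1.61e-15) and 2.34 ± 0.19 in the subepidermis (5.06-fold, adjusted p = 8.46e-31). It was higher in yellow than in all negative cells, by 1.72 ± 0.18 for the epidermal and 1.40 ± 0.19 for the subepidermal REV population. Subepidermal miR165a cells were lower than epidermal miR165a cells by a log2 of -1.09 ± 0.20 (adjusted p = 1.03e-06) and lower than epidermal gap cells by -1.71 ± 0.20. PHB was thus the only member listed between the green populations of the 2 layers.

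Some PHB pairs that were not listed place the gap cells between the domains. Epidermal REV over gap cells gave 0.95 (0.60 to 1.31) and epidermal miR165a over gap cells -0.62 (-0.99 to -0.25), so gap cells were intermediate. Subepidermal miR165a over all negative cells gave -0.94 (-1.33 to -0.55). Of neighbours in the order, epidermal against subepidermal REV cells (0.32, -0.03 to 0.67) and epidermal miR165a against all negative cells (0.15, -0.23 to 0.53) had intervals that included 0.

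PHV, the closest relative of PHB, was listed in 1 of 15 pairs. Its mean over all populations was 345, near that of PHB (354) and ATHB15 (379). Epidermal REV over miR165a cells gave a log2 fold change of 1.02 ± 0.20 (95% interval 0.63 to 1.41, adjusted p = 3.34e-06), just past the limit. Its levels were 500 in epidermal REV and 246 in epidermal miR165a cells, which leaves a mean of 331 over the other 4 populations. That step used the mean count of a fit on those 2 populations, and over 1442 other genes it gave 0.96 to 1.01 times the rebuilt mean (5th to 95th percentile).

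No fold change of PHV can be given for the 14 other pairs, the subepidermal one included. The limit on fold change is 5.0 times the SE of its listed pair. If a larger fold change would always have been listed, each of the 4 other levels lies between 249.8 and 493. The absence of PHV from the subepidermal comparison does not show equal levels there.

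ATHB8 had most of its transcript in subepidermal REV cells. Its level was 305 there, against 11.8 in epidermal REV, 7.20 in epidermal miR165a, 8.61 in epidermal gap, 8.15 in subepidermal miR165a and 6.43 in all negative cells. Subepidermal REV cells thus held 87.9% of the sum over populations, and the other 5 lay at 2.11 to 3.86% of the highest level.

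ATHB8 was listed in 5 of 15 pairs, all with subepidermal REV cells. The log2 fold changes were 5.15 ± 0.45 over epidermal gap, 5.41 ± 0.49 over epidermal miR165a and 4.70 ± 0.44 over epidermal REV cells. Over subepidermal miR165a cells it was 5.23 ± 0.47 (37.4-fold, adjusted p = 1.68e-26) and over all negative cells 5.57 ± 0.48 (47.5-fold, adjusted p = 2.05e-28). The other 10 pairs, among them epidermal REV over miR165a cells (0.71, -0.59 to 2.01), had wide intervals that included 0. Their intervals come from upper limits of the SE. The fit on subepidermal REV and all negative cells alone put ATHB8 at 315 against 4.79, a log2 fold change of 6.04 ± 0.44. At levels of about 10 counts, the intervals of the 10 pairs that were not listed also included a difference of 2-fold.

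ATHB15, a factor of meristem and vascular development, was also highest in subepidermal REV cells, but was present throughout. Its level was 1016 there, against 254 in epidermal REV, 214 in epidermal miR165a and 164 in epidermal gap cells. It was 286 in subepidermal miR165a and 337 in all negative cells. Unlike the levels of REV and PHB, that of ATHB15 in epidermal REV cells lay below those of the non-yellow subepidermal populations, though by less than the error (log2 of epidermal REV over all negative cells -0.41, -0.93 to 0.11).

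ATHB15 was listed in 6 of 15 pairs. Subepidermal REV cells were higher by a log2 of 2.63 ± 0.26 over epidermal gap, 2.25 ± 0.26 over epidermal miR165a and 2.0 ± 0.26 over epidermal REV cells. They were higher by 1.83 ± 0.26 over subepidermal miR165a cells (adjusted p = 1.3e-10) and by 1.59 ± 0.26 over all negative cells (adjusted p = 6.22e-08). The sixth pair was epidermal gap over all negative cells, at -1.04 ± 0.27 (adjusted p = 0.000689). No pair of next neighbours below subepidermal REV cells had an interval that left out 0.

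**Figure D2:**
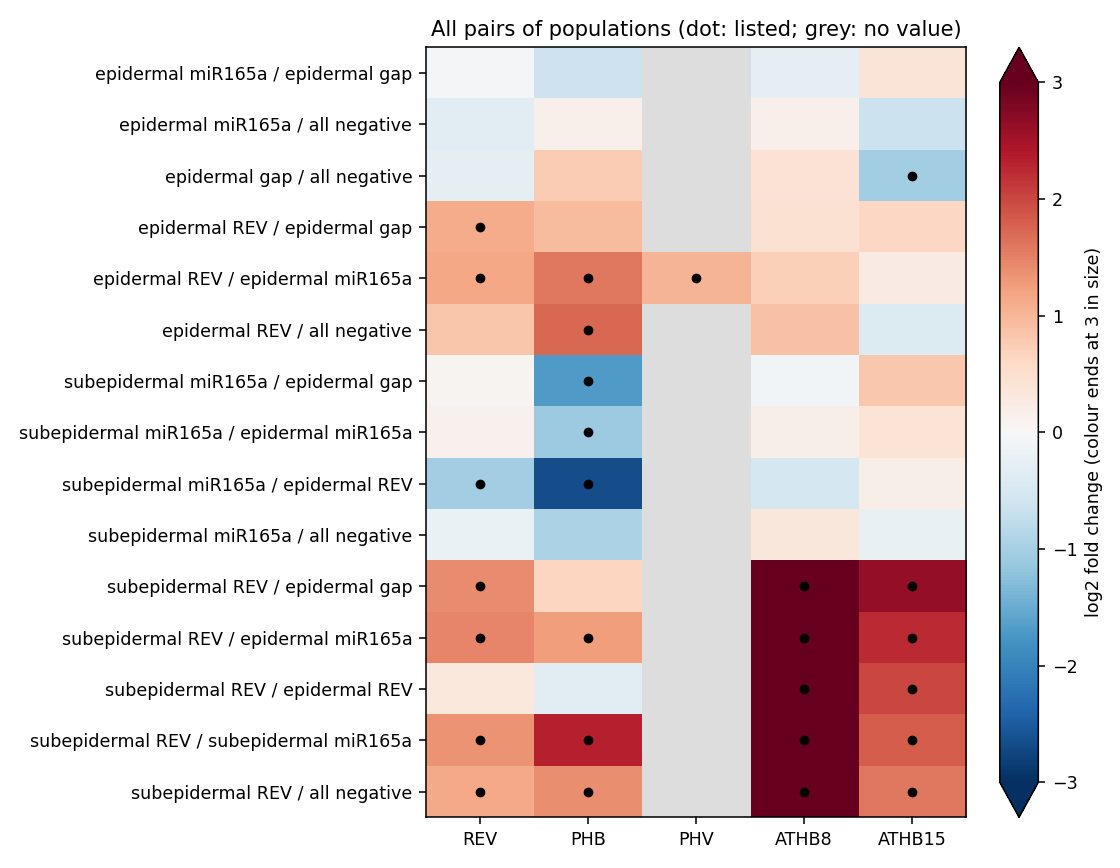
Log2 fold change of each member (columns) for all 15 pairs of populations (rows, named top over bottom). Colour gives the fold change up to 3 in size, a dot a listed pair and grey no value. ATHB8 and ATHB15 carry dots in the 5 rows of subepidermal REV cells, and PHV in 1 row.

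Per kb of exon, a scale on which the members other than REV can be compared, the order of levels changed with the population. REV values include reads of the reporter transgene, so they do not give the level of the REV gene itself. In epidermal REV cells REV stood at 648 normalized counts per kb, PHB at 217, PHV at 162, ATHB15 at 70.0 and ATHB8 at 3.72. In subepidermal REV cells REV stood at 802, ATHB15 at 281, PHB at 173 and ATHB8 at 96.5. In subepidermal miR165a cells the same 4 stood at 314, 79.1, 34.2 and 2.58. ATHB15 therefore ranked above PHB in both of these subepidermal populations and below it in epidermal REV cells.

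The study's main contrast sets the REV domain against the miR165a domain in each layer. In the epidermis 3 of 5 members (REV, PHB and PHV) were listed higher in REV cells, where 13.1% of genes were. In the subepidermis 4 of 5 were (all but PHV), where 12.7% of genes were. Without REV, the sort marker, the counts were 2 of 4 in the epidermis and 3 of 4 in the subepidermis. Besides REV, only PHB was listed in both layers, as were 3.54% of genes. No member was listed lower in REV cells in either layer. These comparisons were also deposited from fits on the 2 populations alone, which listed the same members, with log2 fold changes of 1.18, 1.59 and 1.03 in the epidermis for REV, PHB and PHV. In the subepidermis those fits gave 1.36 for REV, 2.37 for PHB, 5.37 for ATHB8 and 1.88 for ATHB15.

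**Figure D3:**
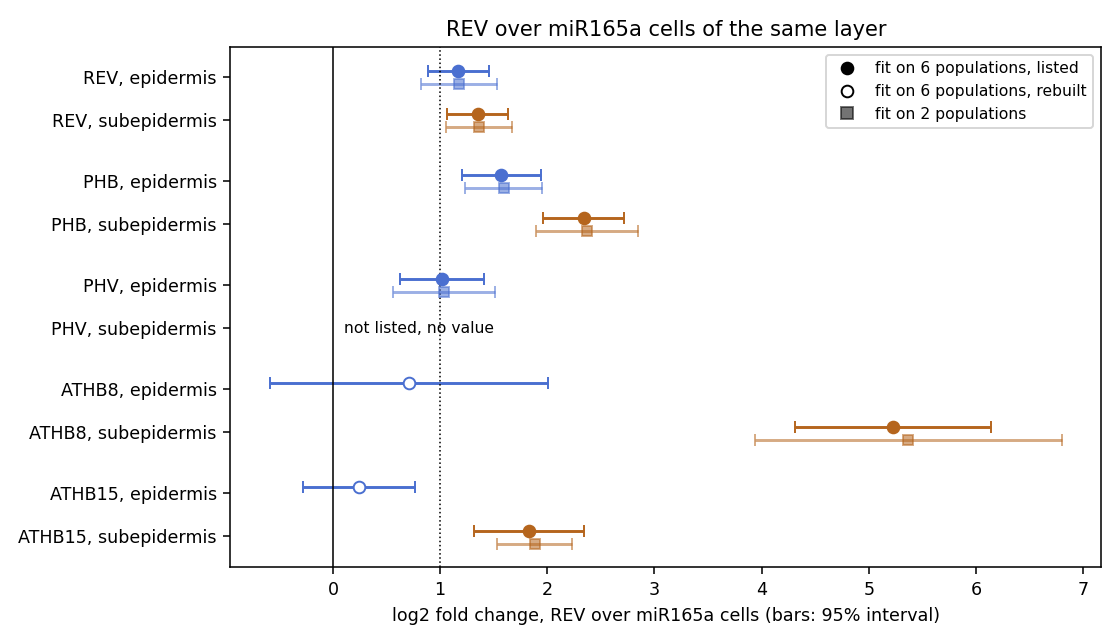
Log2 fold change of REV over miR165a cells for each member in the epidermis (blue) and subepidermis (brown), with 95% intervals. Filled circles are listed and open circles rebuilt values of the fit on 6 populations, squares the fit on 2 populations, and the dotted line the limit of 1. ATHB8 is at 0.71 in the epidermis and 5.23 in the subepidermis.

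Against cells with neither domain marker, REV was the only member listed higher in epidermal REV than gap cells, where 3.69% of genes were. As REV is the sort marker, that listing describes the sort. PHB was the only member listed higher in epidermal REV than all negative cells (22.9% of genes), so that 1 of 5 is near the background. In subepidermal REV over all negative cells 4 of 5 members (REV, PHB, ATHB8 and ATHB15) were listed higher, where 8.9% of genes were. All but PHV were also higher there than in epidermal miR165a cells (18.8% of genes). REV, ATHB8 and ATHB15 were higher there than in epidermal gap cells (19.7% of genes). Each of these counts includes REV, whose listing follows from the sort. ATHB8 and ATHB15 were higher in subepidermal than epidermal REV cells, where 32.2% of genes were, so that 2 of 5 is near the background.

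Comparisons with a green or marker-free population named first held 0 to 2 of 5 members. These counts are too small to set the members apart from the shares of all genes given beside them. In subepidermal miR165a cells REV, the sort marker, and PHB were listed lower than in epidermal REV cells (21.2% of genes). PHB was also lower in subepidermal miR165a than in epidermal gap (14.7%) and epidermal miR165a cells (12.0%). ATHB15 was lower in epidermal gap than all negative cells (23.3%). No member was listed in subepidermal miR165a over all negative cells (5.12% of genes in either direction), in epidermal miR165a over gap cells (14.3%) or in epidermal miR165a over all negative cells (30.2%). For REV, PHB, ATHB8 and ATHB15, the 34 pairs that were not listed had log2 fold changes of at most 0.95 in size.

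ATHB8 and ATHB15 were listed higher in subepidermal REV cells than in each of the 5 other populations, as were 258 genes (3.09%). By the smallest of its 5 fold changes ATHB8 ranked 1 among these 258, at a log2 of 4.70, and ATHB15 ranked 161, at 1.59.

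Whether the layers differ was tested on the difference of the log2 fold changes, epidermis minus subepidermis. For REV over miR165a cells ATHB8 differed by -4.52 (95% interval -6.11 to -2.93, adjusted p = 3.63e-07 from an upper limit of the SE). ATHB15 differed by -1.58 (-2.32 to -0.85, adjusted p = 0.000152), and PHB by -0.77 (-1.30 to -0.24, adjusted p = 0.0137). The domain difference of these members was larger below the epidermis. ATHB8 has values only through pairs with subepidermal REV cells, which the test uses again, so its test is no separate support for those listings. For REV itself the difference was -0.18 (-0.59 to 0.22, adjusted p = 0.477), and PHV could not be tested.

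Differences of that kind were common. Of 4352 genes with a value, each listed for enough pairs to give one, 43.8% passed the same test, and the median difference was -0.66, so PHB lay near the middle of all genes. A difference at or below that of ATHB8 was found for 1.77% of them. With SEs 1.5 times wider PHB no longer passed (adjusted p = 0.18).

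For REV over unmarked cells (gap cells in the epidermis, all negative cells below) ATHB8 differed between layers by -5.12 (-6.67 to -3.56, adjusted p = 8.33e-09), where 22.3% of 4187 genes passed. ATHB15 differed by -0.97 (-1.70 to -0.24, adjusted p = 0.0446), a call that ended with wider SEs (adjusted p = 0.393). PHB gave -0.45 (-0.95 to 0.06) and REV -0.02 (-0.43 to 0.38), neither past the test. The REV populations are the same in both contrasts, so the tests of REV over unmarked and REV over miR165a cells are not separate. For miR165a over unmarked cells no member passed, where 21.0% of 4095 genes did. The unmarked cells of the 2 layers are not the same kind of reference, and the gap population was defined by the blue marker alone.

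**Figure D4:**
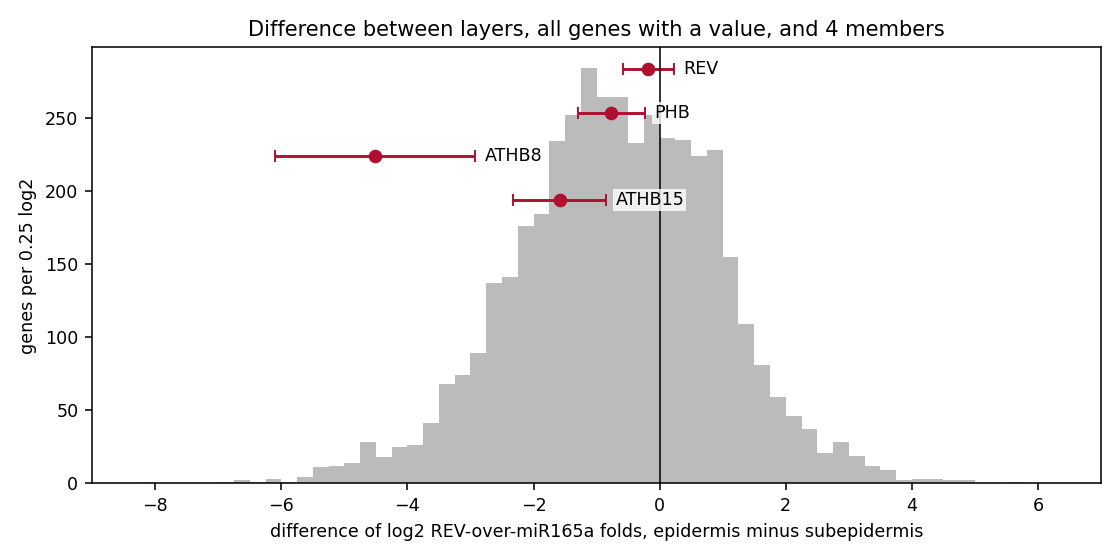
Difference between layers of the log2 fold change of REV over miR165a cells, epidermis minus subepidermis. Grey bars count all 4352 genes with a value, and red points with 95% intervals give 4 members. ATHB8 (-4.52) lies in the lower tail, and REV (-0.18) and PHB (-0.77) lie in the bulk.

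Other genes of the pathway were read from lists of known roles, chosen with earlier results of these data known. The ZPR genes, which HD-ZIPIII factors switch on, were listed higher in subepidermal REV than miR165a cells for 4 of 4, where 12.7% of genes were. Their median log2 was 3.30, while the 2150 genes listed there had a median of -1.02. In the epidermis ZPR3 (3.01 ± 0.60) and ZPR4 (2.17 ± 0.58) were higher in REV than miR165a cells, with ZPR1 and ZPR2 not listed. Levels of these short genes were low, with means of 3.58 (ZPR2) to 15.2 (ZPR3) counts. ZPR3 stood at 30.5 in epidermal REV and 32.3 in subepidermal REV cells, while ZPR4 stood at 14.9 and 48.4 in the same populations.

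AGO10, described above, had a level of 1305 in epidermal REV, 397 in epidermal miR165a and 817 in epidermal gap cells. It was 3575 in subepidermal REV, 606 in subepidermal miR165a and 1452 in all negative cells. REV over miR165a cells gave 1.72 ± 0.22 in the epidermis and 2.56 ± 0.22 in the subepidermis. AGO1 was not listed for any pair. Among the 9 genes for miR165 and miR166, only MIR166A was listed, with a mean count of 5.26. In subepidermal REV cells it was lower than in subepidermal miR165a cells by a log2 of -2.17 ± 0.71. It was also lower there than in all negative (-2.42 ± 0.71), epidermal miR165a (-2.10 ± 0.71) and epidermal gap cells (-1.99 ± 0.71). These libraries do not measure the mature microRNA.

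HD-ZIPII factors, some of which act with HD-ZIPIII factors on the adaxial side, were not of one pattern. HAT3 was higher in REV than miR165a cells of both layers (3.21 ± 0.26 in the epidermis, 2.98 ± 0.28 below). ATHB4 was higher in the epidermis (1.23 ± 0.20) and lower in the subepidermis (-1.05 ± 0.21), and HAT1 was lower in the epidermis (-2.05 ± 0.28). ATHB2 was lower in the subepidermis (-1.79 ± 0.24), and HAT2 was listed for no pair. The list thus had 2 of 5 higher and 1 lower in REV cells of the epidermis (median 1.23), where 13.1% of genes were higher and 29.8% lower and the 3577 genes listed had a median of -1.36. In the subepidermis it had 1 higher and 2 lower (median -1.05), where 12.7% of genes were higher and 13.1% lower.

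Most abaxial factors ran the other way. KAN1, KAN2, KAN3, KAN4, FIL, YAB2 and YAB3, 7 of 10, were lower in REV than miR165a cells in both layers, with a median log2 of -3.46 in the epidermis and -3.62 in the subepidermis. Of all genes 29.8% were listed lower in the epidermal and 13.1% in the subepidermal comparison. ETT, YAB5 and ARF4 were not listed in these comparisons. Across layers, ETT was listed higher in subepidermal REV than epidermal miR165a cells (1.12 ± 0.21), against the direction of the 7 others. KAN1 stood at 20.3 in epidermal REV against 527 in epidermal miR165a cells, and at 11.4 in subepidermal REV against 302 in subepidermal miR165a cells.

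Most but not all of the vascular genes peaked with ATHB8. Of 11 xylem and cambium genes, 8 (MP, TMO5, T5L1, WOX4, PXY, VND7, ACL5 and AHP6) were higher in subepidermal REV than miR165a cells, with a median of 4.62, where 12.7% of genes were higher. In the epidermis 4 of 11 (MP, PXY, LOG4 and AHP6) were higher in REV than miR165a cells, with a median of 1.52, where 13.1% of genes were higher. LOG4 and AHP6 were listed lower in subepidermal than epidermal REV cells (-1.17 ± 0.37 and -1.25 ± 0.38), against the direction of ATHB8. The levels of 9 such genes summed to 4380 in subepidermal REV cells and to 643 to 2485 elsewhere, with MP as the largest share. Without MP the other 8 summed to 2110 in subepidermal REV, 656 in epidermal REV and 167 to 284 in the other cells. The levels of 5 phloem markers summed to 1180 in subepidermal REV, 1114 in all negative and 212 to 380 in the other cells. Rebuilt levels cannot be 0, so the absence of a marker cannot be read from them. The phloem markers split. OPS (661 against 206) and CVP2 (377 against 127) had higher levels in subepidermal REV than all negative cells. APL (59.3 against 113) and SUC2 (42.5 against 521) had lower levels there. BRX was highest in subepidermal miR165a cells, at 178 against 39.7 in subepidermal REV cells. In subepidermal REV over miR165a cells 3 of 5 phloem markers were listed higher (12.7% of genes) and 1, BRX, lower (13.1% of genes). The part of vascular cells in the levels of ATHB8 and ATHB15 was not tested.

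The genes with a profile most like a member were ranked by the root mean square (RMS) difference of centred log2 levels over the 6 populations, among 2239 genes with a mean count of at least 50. For ATHB8 these were TMO5 (AT3G25710, RMS 0.52), a factor of vascular initiation, BRL2 (AT2G01950, 0.57), a receptor-like kinase of provascular cells, and PXY (AT5G61480, 0.64), the receptor that maintains the cambium. TMO5 stood at 792 in subepidermal REV cells and at 17.4 to 40.9 elsewhere. For ATHB15 they were FHL (AT5G02200, 0.24), AT5G03545 (0.28) and SARK (AT4G30520, 0.29).

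For PHB they were ELIP2 (AT4G14690, 0.22), the cyclin gene CYCA2;4 (AT1G80370, 0.27) and GPK1 (AT3G17420, 0.27). For REV they were UGT71C3 (AT1G07260, 0.17), AT3G17680 (0.19) and AT3G62060 (0.21). Among members the order depended on the measure. By RMS difference REV and ATHB15 were nearest (0.55) and PHB and ATHB8 farthest (1.67), whereas by Pearson r over the 6 populations ATHB8 and ATHB15 were nearest (0.90) and PHB and ATHB15 farthest (0.28). All profiles share the same libraries and only 6 points, and with a minimum count of 200 the named genes were replaced, except 1 for ATHB15.

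**Figure D5:**
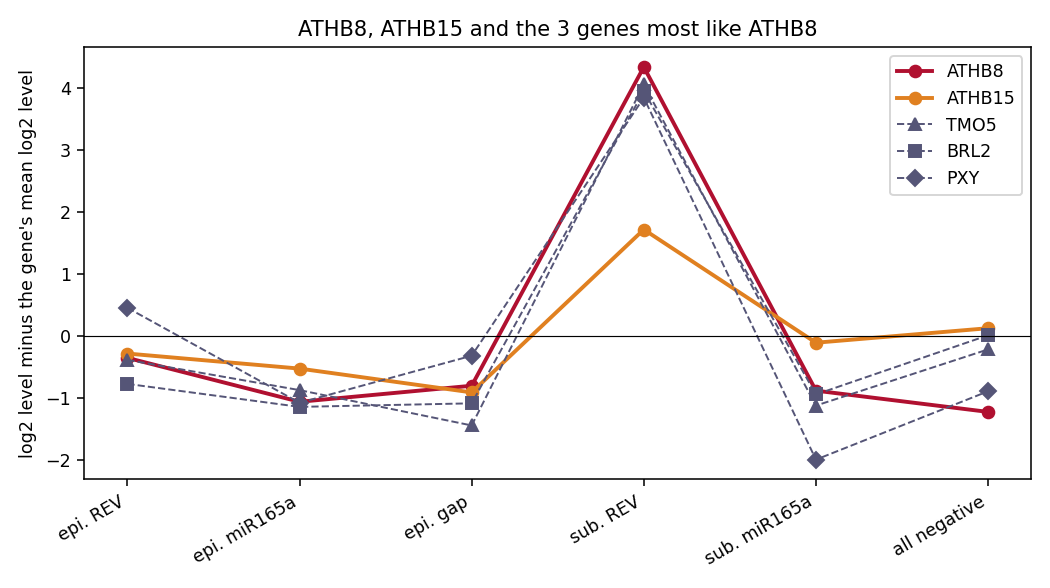
Log2 level minus the mean log2 level of each gene in the 6 populations for ATHB8, ATHB15 and the 3 genes most like ATHB8. Each point is 1 rebuilt level. All 5 genes peak in subepidermal REV cells, and ATHB15 has the flattest profile.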

How the data were processed

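Reads were checked (FastQC), trimmed (cutadapt), mapped to TAIR10 (TopHat) and counted over exons (HTSeq) by the authors, who compared populations with DESeq2. Versions are not given in the sources used here. Each deposited table gives a signal, the mean of counts that the authors normalized over libraries. It also gives the deposited log2 fold change with its standard error, for which shrinkage is not stated, and the deposited p-value (Wald test, Benjamini-Hochberg adjusted). These columns are the authors' own comparisons, used because no file holds values per library, and depth per library is unknown. Of 19 tables, 15 share 1 fit on 6 populations (fold changes additive to 1.47e-14) and 4 are fits on 2. The largest SE was 0.73 in each of the 15, against 1.36 to 1.55 in the 4. Whether the fold changes were shrunken was not tested, and the levels and layer differences rest on them.

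Levels were rebuilt from the mean count and the additive fold changes. A pair's squared SE was taken as the sum of a term per population (median departure 0.0016%, largest 3.55%, over 3404 genes). Where the listed pairs did not fix these terms, the largest SE they allow was used. Rebuilt means over 2 populations were checked against the deposited ones, whose median ratios were 0.98 to 1.00. Differences between layers had a two-sided z test with Benjamini-Hochberg adjustment over all genes with a value. The scripts were tested on simulated data (Python 3.11.15, NumPy 2.4.6, pandas 2.3.3, SciPy 1.17.1). Alternatives were an adjusted p of 0.01, a log2 limit of 1.5, the fits on 2 populations, wider SEs, a minimum count and another measure of likeness. Named genes were the members, the context lists and the 3 genes most like each member. The family and the lists were picked for study with earlier results of these data known. Sequences and coordinates are from RefSeq TAIR10.1.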

Additional observations from a re-analysis of the deposited data

Results flagged for a closer look

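In 5 cases the effect of a domain differed between the layers by a test of the difference itself (epidermis minus subepidermis, log2 scale, two-sided z test). For REV over miR165a cells these were ATHB8 (-4.52, adjusted p = 3.63e-07), ATHB15 (-1.58, adjusted p = 0.000152) and PHB (-0.77, adjusted p = 0.0137). For REV over unmarked cells they were ATHB8 (-5.12, adjusted p = 8.33e-09) and ATHB15 (-0.97, adjusted p = 0.0446). The contrasts share the REV populations, so the cases of ATHB8 and ATHB15 in the second are not separate from those in the first. ATHB8 has values only through pairs with subepidermal REV cells, which the test uses again. The same test passed for 43.8% of genes in the first contrast and 22.3% in the second.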

How the results depend on the processing

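No paired analysis was possible because the files hold no values per library. Leaving out each replicate was not run for the same reason. With an adjusted p of 0.01 the count of members called was the same in all 15 pairs, and the fits on 2 populations kept every count and direction they could be compared with (16 of 16 values). With a log2 limit of 1.5 the members called fell to 0 in epidermal gap over all negative cells, 0 in epidermal REV over gap cells, 0 in subepidermal over epidermal miR165a cells, 1 in epidermal REV over miR165a cells, 1 in subepidermal miR165a over epidermal REV cells, 2 in subepidermal REV over epidermal miR165a, epidermal gap and all negative cells and 3 in subepidermal REV over subepidermal miR165a cells, where REV was lost. With SEs 1.5 times wider, 10 of 12 layer differences kept their side of the threshold. Those of PHB for REV over miR165a cells (-0.77, adjusted p = 0.18) and ATHB15 for REV over unmarked cells (-0.97, adjusted p = 0.393) did not. All 12 kept it among genes with a mean count of at least 50. Levels from the fits on 2 populations, added after the data were seen, were 0.75 to 1.03 times the rebuilt ones. The genes most like a member depended on the measure, as Pearson correlation kept 1 of 3 for REV, 2 for PHB, 1 for ATHB8 and 0 for ATHB15.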
